A study of Homo sapiens with 9 samples.

Results

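The untreated state of HT-29, an established human colon adenocarcinoma cell line, was described from 3 arrays, one for each culture that had received the DMSO vehicle, or 0 µM 5-Aza. They were chosen by their titles alone and are 3 of the 9 arrays of the series. The other 6 arrays, from cultures at 5 and 10 µM 5-aza-deoxycytidine (5-Aza), an inhibitor of DNA methyltransferases, were compared with nothing here. All cultures were grown as monolayers in DMEM with fetal bovine serum, kanamycin, penicillin and streptomycin, and carried no engineered change. HT-29 is 1 line from 1 tumour, so that the values describe this line and not the colon. Labelled total RNA of each culture had been hybridised to an Affymetrix U133 Plus array, which reports log2 signals of probe sets.

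The colon epithelium is a single layer of polarised cells, held together by adherens and tight junctions and by keratin filaments. Stem cells at the base of the crypt, kept by Wnt signalling, give rise to absorptive colonocytes, mucus-secreting goblet cells and hormone-secreting enteroendocrine cells. Colon cancer cells keep parts of this programme and lose others, and many of their silent genes carry methylated promoter CpG islands.

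Each gene was represented by its brightest probe set, and its signal was read on 2 scales, as the log2 signal itself and as the relative signal, which is the log2 signal minus the median log2 signal of that array, taken over all probe sets. Values below are means ± SD of the log2 signal over the 3 arrays unless the relative signal is named. The array medians were 5.20, 5.07 and 5.17, and the highest signals 14.94, 14.68 and 14.85. The median served as a floor. The 27 probe sets for dap, lys, phe, thr and trp, bacterial genes that HT-29 cells do not carry, served as controls. They had log2 signals of at most 4.54 on any array, under all 3 medians. Whether their transcripts had been spiked in is not stated by the study. Of the 7285 genes below the floor on all 3 arrays, 5451 (74.8%) were at or under the highest of these controls on all 3, and 123 were over it on all 3. A gene below the floor is therefore dim, and not shown to be silent. Probe sets also bind with different strength, so that the order of signals of different genes is not an order of their transcript amounts.

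Of 19775 genes, 10889 (55.1%) lay above the median on all 3 arrays, 7285 (36.8%) lay below it on all 3, and 1601 (8.1%) fell on both sides. The counts of list members below are to be read against these shares, and a count near them tells nothing particular about a list. limma, with 1 mean over the 3 arrays, called 10000 genes (50.6%) more than 2-fold above the median and 5036 genes (25.5%) more than 2-fold below it at an adjusted p of at most 0.05. These p-values test the mean relative signal against 0, and the 2-fold limit was applied to the mean without a test of its own. They rest on the spread between 3 cultures of 1 line. eBayes also draws the variance of each gene towards 1 value shared by all genes. With eBayes set to trend and robust, 10007 genes were called above and 6396 below. Signals above the floor were close between cultures, with a median SD of 0.127 against 0.883 for genes below it. The median SD was 1.12 for the 4005 genes with a mean log2 signal from 2 to 4, 0.191 for the 3055 genes from 6 to 8 and 0.077 for the 615 genes over 12. Between any 2 arrays, 0.45% to 0.735% of the genes above the floor differed by more than 2-fold, against 20.3% to 20.5% of all genes. Pearson's r across genes, which are not independent replicates, was 0.988 to 0.992 for genes above the floor.

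**Figure D1:**
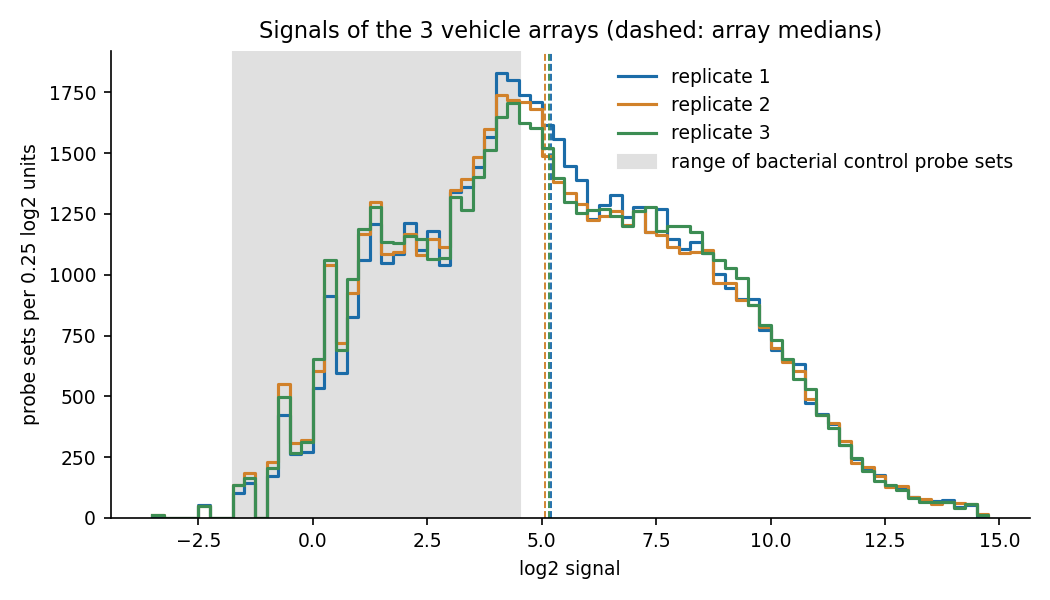
Number of probe sets per 0.25 log2 units (y axis) against log2 signal (x axis) for the 3 vehicle arrays, 1 line each, with dashed lines at the array medians of 5.20, 5.07 and 5.17. The grey band is the range of the 27 bacterial control probe sets, which ends at 4.54, below all 3 medians.

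The label of the line was checked against marker genes. Of 12 intestinal epithelial markers, 10 lay above the median on all 3 arrays, with a median relative signal of 8.22. The 12 hold EPCAM, CDH1, KRT8, KRT18 and KRT19, which mark simple epithelia in general and not the intestine alone. The others were at 8.66 for KRT20, 8.32 for LGALS4, 5.82 for VIL1, 3.21 for CDH17 and 0.88 for GPA33 on the relative scale. CDX2 and CDX1 were at -2.03 and -2.52 on that scale. Of 20 markers of fibroblasts, endothelium, blood, neurons, muscle and hepatocytes that were on the array, 5 lay above it, 12 below it and 3 on both sides, with a median relative signal of -1.83. The 5 were COL1A1, LUM, PECAM1, CD14 and SNAP25, at 6.98 ± 0.20, 6.87 ± 0.26, 6.14 ± 0.30, 6.35 ± 0.12 and 5.65 ± 0.09, and 4 of them, all but CD14, also had a probe set below the median on all 3 arrays. The pan-leukocyte gene PTPRC lay at 2.04 ± 1.01, the endothelial gene VWF at 2.24 ± 1.16 and the hepatocyte gene ALB at 3.24 ± 0.45, all below the floor on every array. The 2 epithelial markers below the floor were CDX1 and CDX2, described with the transcription factors.

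The brightest genes were those of mitochondrial respiration and of protein synthesis. Of the 20 genes with the highest means, 4 (COX2, ND4, COX1 and ND2) are encoded by mitochondrial DNA. COX2, a subunit of cytochrome c oxidase, had log2 signals of 14.56, 14.65 and 14.69, and ND4, a subunit of complex I, of 14.55, 14.64 and 14.64. Another 13 encode proteins of the cytosolic ribosome, among them RPS19 at 14.54 ± 0.02 and RPS16 at 14.53 ± 0.04. EEF1A1, the elongation factor that brings aminoacyl-tRNA to the ribosome, stood at 14.45 ± 0.03, and TPT1, a translationally controlled calcium-binding protein, at 14.42 ± 0.04. The last of the 20 was KRT18, a keratin of simple epithelia, with log2 signals of 14.30, 14.40 and 14.39 and a relative signal of 9.22 ± 0.12 (limma, adjusted p = 6.24e-05). Its probe set can share targets with pseudogenes and other keratins. The largest SD among the 20 was 0.093, of RPL24.

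All 18 adherens junction and desmosome genes and all 18 tight junction genes on the array lay above the median on all 3 arrays, against 55.1% of all genes. Their median relative signals were 5.81 and 4.84, against 1.09 over all genes. EPCAM, an epithelial adhesion protein, had log2 signals of 13.56, 13.64 and 13.62, and CDH1, the E-cadherin of adherens junctions, of 13.29, 13.35 and 13.50. CTNNA1 and CTNNB1, the catenins that link E-cadherin to actin, stood at 12.37 ± 0.06 and 11.26 ± 0.04. The desmosome genes DSP and DSG2 were at 11.82 ± 0.08 and 11.22 ± 0.06, and ESRP1, a splicing factor of epithelial cells, at 12.13 ± 0.17. Among tight junction genes, the scaffold TJP1 (ZO-1) was at 12.90 ± 0.06, OCLN at 11.13 ± 0.05 and CLDN7 at 11.61 ± 0.12. CLDN2, a pore-forming claudin, was dimmer at 7.16 ± 0.20, and CLDN23 lay just over the floor at 5.52 ± 0.23 with a relative signal of 0.37. CLDN23 also had a probe set that lay below the median on all 3 arrays.

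Keratins were divided as well. The 4 keratins of simple intestinal epithelium were bright, with KRT8 at 13.91 ± 0.03, KRT20 at 13.81 ± 0.04, KRT19 at 13.36 ± 0.04 and KRT18 as above. The keratin list held 18 chosen entries and is not a full set of the family. Of the 15 that were found, 10 lay above the floor, among them KRT10 at 11.75 ± 0.10, KRT80 at 10.16 ± 0.12, KRT7 at 8.33 ± 0.23, KRT23 at 7.69 ± 0.14, KRT13 at 7.34 ± 0.38 and KRT15 at 6.24 ± 0.09. The 5 below it on all 3 arrays were keratins of stratified epithelia, namely KRT1 at 3.79 ± 1.66, KRT5 at 3.15 ± 0.71, KRT16 at 3.12 ± 1.42, KRT14 at 3.08 ± 1.27 and KRT4 at 1.94 ± 1.03. limma called 3 of these 5 more than 2-fold below the median. KRT10, KRT13 and KRT15, above the floor, are keratins of stratified epithelia too, so that such keratins lay on either side. Of 9 CEACAM genes, which encode carcinoembryonic antigen-related adhesion proteins, 6 lay above the floor. CEACAM6, CEACAM1 and CEACAM5, the carcinoembryonic antigen itself, stood at 11.45 ± 0.12, 11.28 ± 0.10 and 9.81 ± 0.16. CEACAM19, CEACAM7 and CEACAM3 were at 6.84 ± 0.08, 6.16 ± 0.42 and 5.59 ± 0.30, while CEACAM4, CEACAM21 and CEACAM8 lay below the floor at 4.46 ± 0.07, 3.07 ± 1.30 and 2.51 ± 1.44. A dimmer probe set, below the floor on all 3 arrays, existed for KRT19, KRT7, CEACAM7 and CEACAM3.

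The transcription factors of the intestine were unevenly present, with 15 of 23 above the floor, 7 below it and 1 on both sides. EHF and ELF3, epithelial ETS factors, had signals of 13.41 ± 0.14 and 11.23 ± 0.08, and KLF5, a factor of proliferating crypt cells, of 12.53 ± 0.16. SOX9, a crypt progenitor factor, was at 11.61 ± 0.05, KLF4 at 11.31 ± 0.07 and GATA6 at 10.36 ± 0.17. HES1, the Notch target that favours the absorptive fate, had signals of 11.63, 11.50 and 11.63, while ATOH1, which directs cells to the secretory fate, had signals of 4.87, 4.82 and 3.96 and lay below the floor on every array. CDX2, the homeobox factor of intestinal identity, had log2 signals of 4.77, 4.57 and 0.000, so that all 3 arrays were below the floor and far from each other. Both of its probe sets lay there, and limma did not call it at a relative signal of -2.03 (adjusted p = 0.198). CDX1, its paralog, stood at 2.63 ± 1.24 (limma, adjusted p = 0.0203). That call was lost without replicate 1. The further factors above the floor were ONECUT2 at 10.32 ± 0.03, HNF4G at 9.67 ± 0.07, the goblet cell factor SPDEF at 8.57 ± 0.11, PITX1 at 7.997 ± 0.33, PRDM1 at 7.46 ± 0.07 and the pioneer factors FOXA1, FOXA2 and FOXA3 at 8.53 ± 0.28, 7.81 ± 0.04 and 7.25 ± 0.17. PDX1, NEUROG3, GFI1 and ISX lay below it at 3.54 ± 0.84, 3.21 ± 0.64, 2.88 ± 2.29 and 2.15 ± 2.52, and GATA4 lay on both sides at 4.66 ± 1.79. Probe sets disagreed for GATA6, HES1 and HNF4G, with another one below the floor on all 3 arrays.

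Genes of mature absorptive cells were found on either side of the floor. Of 31 on the array, 12 (38.7%) lay above it, 15 below it and 4 on both sides, with a median relative signal of -0.94. LGALS4, an intestinal galectin, had log2 signals of 13.46, 13.53 and 13.41, TSPAN8, a tetraspanin, stood at 12.94 ± 0.04, and the actin-binding proteins EZR and VIL1 at 11.90 ± 0.15 and 10.96 ± 0.11. CDH17, the intestinal cadherin, was at 8.36 ± 0.15, and CA2, a carbonic anhydrase, at 7.92 ± 0.16. The glucose carrier SLC5A1 was above the floor as well, at 6.93 ± 0.18. Among the genes below it, ALPI, the intestinal alkaline phosphatase, had signals of 1.38, 3.22 and 1.38, ANPEP, an aminopeptidase, of 1.77, 3.38 and 0.58, and the water channel AQP8 of 0.48, 0.58 and 2.68. LCT, the lactase, was at 2.75 ± 1.53, SLC26A3, the chloride-bicarbonate exchanger of the colon, at 3.02 ± 0.94, and the fatty acid and lipid carriers FABP1 and APOA4 at 4.18 ± 0.53 and 3.27 ± 1.45. For the hydrolase SI the signal was 4.23 ± 0.30. DPP4, a brush border peptidase, differed between arrays, with signals of 11.02, 9.98 and 9.98. 

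Among 23 goblet and Paneth cell genes, 11 (47.8%) lay above the floor and 11 below, against 55.1% and 36.8% of all genes. LYZ, the lysozyme of Paneth cells, had signals of 13.72, 13.69 and 13.63, and AGR2, which folds mucins in the endoplasmic reticulum, of 13.61, 13.76 and 13.66. SPINK1, a trypsin inhibitor, was at 12.48 ± 0.09, and the trefoil genes TFF3, TFF1 and TFF2 were at 8.46 ± 0.10, 7.42 ± 0.21 and 6.10 ± 0.21. The Paneth cell defensins DEFA5 and DEFA6 lay below the floor at 3.02 ± 2.31 and 3.17 ± 1.41, as did the goblet cell genes CLCA1, ZG16 and ITLN1 at 2.96 ± 0.83, 2.08 ± 0.84 and 3.79 ± 0.52. Of 14 mucins, 6 lay above the floor. MUC5AC, the gel-forming mucin that the stomach rather than the normal colon makes, had log2 signals of 10.44, 10.40 and 10.57, and MUC2, the main secreted mucin of the colon, of 7.45, 6.98 and 7.34. The membrane mucins MUC13, MUC20, MUC3A and MUC12 were at 8.85 ± 0.16, 8.47 ± 0.27, 6.40 ± 0.11 and 6.12 ± 0.27. MUC1, MUC17 and MUC6 lay on both sides at 5.24 ± 0.51, 4.96 ± 0.53 and 4.27 ± 1.34, and MUC4, MUC5B, MUC7, MUC16 and MUC15 lay below the floor at 4.46 ± 0.49, 3.35 ± 0.97, 2.38 ± 2.16, 0.77 ± 1.03 and 0.37 ± 0.43. Only 2 of 17 enteroendocrine genes lay above the floor on all 3 arrays, the somatostatin gene SST at 6.74 ± 0.31 and PAX4 at 6.59 ± 0.64, while CHGA, the chromogranin of secretory granules, was at 3.01 ± 0.58 and GCG, the glucagon gene, at 3.24 ± 0.65. For MUC12, another probe set stayed below the floor on all 3 arrays.

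Of 24 Wnt target and stem cell genes, 15 (62.5%) lay above the floor, against 55.1% of all genes. CD44 and MYC, targets of TCF and beta-catenin, stood at 12.56 ± 0.10 and 11.94 ± 0.22, and TCF7L2, the TCF of the intestine, at 12.12 ± 0.09. The feedback inhibitors of the pathway RNF43, ZNRF3 and AXIN2 were at 11.29 ± 0.09, 11.37 ± 0.06 and 10.68 ± 0.13, and PROM1 (CD133) at 11.01 ± 0.06. LGR5, the marker of crypt base stem cells, was near the floor with signals of 5.75, 5.59 and 5.67 and a relative signal of 0.52 ± 0.03, and ASCL2 was at 6.20 ± 0.17. OLFM4 and SMOC2, which mark the same cells, lay below the floor at 0.77 ± 2.47 and 4.52 ± 0.75, and so did MSI1 at 1.08 ± 0.40 and LEF1 at 3.64 ± 0.56. Of 39 Wnt ligands, receptors and antagonists, 11 (28.2%) lay above the floor. These held the receptors LGR4 at 10.53 ± 0.15, FZD5 at 10.18 ± 0.09 and LRP6 at 9.79 ± 0.07 and the ligand WNT10A at 9.39 ± 0.14. WNT5A, SFRP5 and WIF1 lay below it at 2.04 ± 2.41, 2.12 ± 0.60 and 2.56 ± 1.67. Of 14 genes of bile acid handling and its receptor FXR, 7 lay above the floor, among them the exporter ABCC3 at 13.21 ± 0.17 and the hormone gene FGF19 at 9.77 ± 0.30, while SLC51A was at 0.47 ± 0.69. Another probe set of CD44, AXIN2, LGR5, ASCL2, LGR4 and WNT10A lay below the floor on all 3 arrays.

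HOX genes, which set position along the body axis, differed between the HOXB, HOXC and HOXD clusters. Of 28 that had a probe set naming 1 gene, 14 lay above the floor. The HOXB cluster gave 8 of 10, HOXC 4 of 9, HOXD 1 of 8 and HOXA 1 of 1. HOXB2 to HOXB9 were all above the floor, with means from 7.60 ± 0.18 for HOXB2 to 11.73 ± 0.21 for HOXB3, the brightest, whose signals were 11.54, 11.70 and 11.96. HOXB4, HOXB5, HOXB6, HOXB7, HOXB8 and HOXB9 stood at 7.68 ± 0.05, 9.40 ± 0.25, 10.19 ± 0.15, 10.60 ± 0.13, 9.47 ± 0.31 and 10.37 ± 0.09. At the ends of that cluster HOXB1 lay below the floor at 3.52 ± 1.09 and HOXB13 on both sides at 4.86 ± 0.86. In the HOXC cluster HOXC4, HOXC5 and HOXC6 were above it at 9.01 ± 0.17, 7.05 ± 0.15 and 11.56 ± 0.14, and HOXC9 was close to it at 5.89 ± 0.14. HOXC8, HOXC10, HOXC12 and HOXC13 were below at 3.97 ± 1.01, 4.74 ± 0.27, 3.39 ± 0.22 and 3.36 ± 0.04, and HOXC11 on both sides at 4.91 ± 1.10. HOXD8 was the one HOXD gene above the floor, at 5.37 ± 0.38, and limma did not call it (adjusted p = 0.293). HOXD4 lay on both sides at 4.95 ± 0.23, and HOXD1, HOXD9, HOXD10, HOXD11, HOXD12 and HOXD13 were below at 2.96 ± 1.54, 3.80 ± 1.11, 3.43 ± 0.80, 2.44 ± 2.39, -0.19 ± 0.79 and 4.92 ± 0.26. HOXA2, the one HOXA gene analysed here, was at 8.21 ± 0.08, so that the HOXA cluster as a whole is not described. Whether the 1801 probe sets that name several genes hold other HOXA genes was not tested. 

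**Figure D2:**
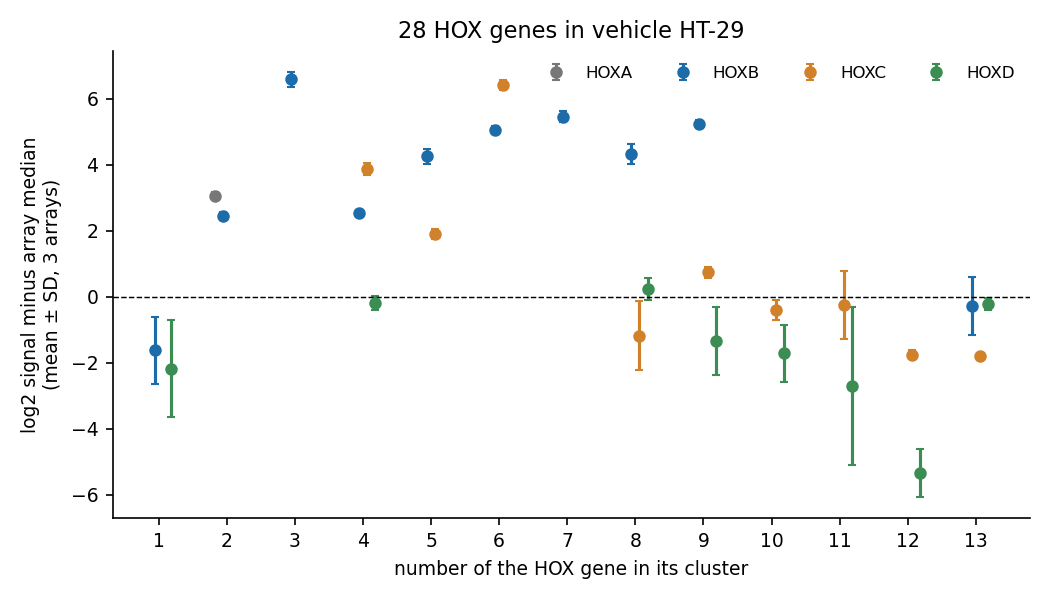
Relative signal (log2 signal minus array median, y axis) of 28 HOX genes against their number in the cluster (x axis), coloured by cluster. Points are means and bars the SD over the 3 vehicle arrays. HOXB2 to HOXB9 sit above the dashed floor, as do HOXC4 to HOXC6, while 6 of the 8 HOXD genes lie below it on all 3 arrays.

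Genes of protein synthesis, turnover and energy supply were above the floor almost throughout. All 54 cytosolic ribosomal protein genes and all 75 mitochondrial ones lay above it, as did 30 of 30 aminoacyl-tRNA synthetase genes, 30 of 31 translation factor genes, 33 of 34 proteasome genes and 28 of 29 chaperone genes. The exceptions were few. PSMA8, the proteasome subunit of the testis, was at 3.56 ± 0.62, CRYAB, a small heat shock protein of lens and muscle, at 3.91 ± 1.45, and the initiation factor EIF4A2 at 3.95 ± 0.61. Among the cytosolic ribosomal genes RPLP2, a protein of the ribosomal stalk, RPL36A and RPL27A were dim at 6.10 ± 0.26, 6.32 ± 0.16 and 7.94 ± 0.17, against a list median of 14.06. The 1801 probe sets that name several genes stood for no gene here. EIF4A2, RPL36A and RPL27A were each left with 1 probe set and RPLP2 with 2. Whether a left-out probe set reads these genes as brighter was not tested. In oxidative phosphorylation 69 of 75 genes lay above the floor, and 4 lay below it on all 3 arrays, namely the tissue-restricted forms COX7A1 (muscle), COX6B2 (testis), COX7B2 and COX8C, at 1.41 ± 0.93, 2.96 ± 1.15, 2.67 ± 1.19 and -0.12 ± 1.64. Glycolysis showed the same split between forms. GAPDH had signals of 13.80, 13.82 and 13.71, LDHA of 13.09, 13.23 and 13.15 and ALDOA of 12.68, 12.79 and 12.67, and 19 of 25 genes lay above the floor. The 6 below were LDHC, PGK2 and GAPDHS of the testis, PGAM2 of muscle, PKLR of liver and red cells and HK3 of blood cells, at 4.14 ± 0.46, 2.75 ± 1.03, 1.99 ± 0.50, 2.85 ± 1.23, 3.08 ± 0.98 and 1.995 ± 0.14, and limma called all 6. All 15 housekeeping genes on the array lay above the floor. 

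Stress and detoxification genes were bright in the vehicle cultures. All 22 ATF4 stress response genes on the array lay above the floor, with a median relative signal of 6.93. ASNS, the asparagine synthetase, had signals of 13.20, 13.31 and 13.18, TRIB3, a pseudokinase, of 13.13, 13.11 and 13.14, and PSAT1, of serine synthesis, of 13.71, 13.71 and 13.64. ATF4 itself was at 13.15 ± 0.04, and DDIT3 (CHOP) at 10.56 ± 0.19. Of 24 NRF2 target and aldo-keto reductase genes, 22 lay above the floor. GPX2, the gastrointestinal glutathione peroxidase, was at 13.62 ± 0.06, NQO1, a quinone reductase, at 12.51 ± 0.07, the cystine carrier SLC7A11 at 12.77 ± 0.02 and the aldo-keto reductases AKR1B10 and AKR1C3 at 11.48 ± 0.06 and 12.19 ± 0.10. AKR1C1, AKR1C2 and AKR1C3 are close in sequence, and their probe sets can share targets. HMOX1, the inducible heme oxygenase, was dim at 6.32 ± 0.43. Cytochromes P450 were split, with 12 of 30 above the floor, led by CYP3A5, a xenobiotic-metabolising enzyme, at 13.52 ± 0.18, CYP1B1 at 10.26 ± 0.07 and CYP2R1 at 10.07 ± 0.18. CYP1A1 lay on both sides at 3.54 ± 2.01, and CYP4F11 and CYP2F1 lay below the floor at 0.99 ± 0.40 and 0.53 ± 1.39. In cholesterol and fatty acid synthesis 19 of 20 genes lay above the floor, among them the desaturase SCD at 13.67 ± 0.13 and the squalene epoxidase SQLE at 12.30 ± 0.13, and MVD was the exception at 1.46 ± 0.40. Of 9 metallothioneins, 6 lay above the floor, from 7.97 ± 0.26 for MT1G to 10.04 ± 0.38 for MT1E, all by probe sets that the family can share. Below the floor on all 3 arrays lay a further probe set of CYP1B1, CYP2R1 and MT1G.

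Cell cycle genes had middling signals. Of 39 G1/S and DNA replication genes 32 lay above the floor, with a median relative signal of 1.98, and of 34 G2/M and mitosis genes 32, with a median of 2.43. CDK4, a kinase of the G1 phase, was at 11.02 ± 0.15, and PCNA, the clamp of DNA polymerase, at 9.99 ± 0.21. The mitotic genes CCNB1 (cyclin B1), AURKA (Aurora A kinase) and MKI67 (Ki-67) stood at 9.21 ± 0.25, 9.43 ± 0.21 and 7.11 ± 0.36. MCM10 lay below the floor at 4.92 ± 0.20 and PLK1 on both sides at 4.85 ± 0.30. Of 7 cyclin-dependent kinase inhibitor genes 6 lay above it. CDKN2A, which encodes p16 and ARF, stood at 10.44 ± 0.07, CDKN1B (p27) at 10.81 ± 0.07 and CDKN1A (p21) at 8.32 ± 0.18. The CDKN2A signal was not assigned to either of its products. AURKA and CDKN2A also had a probe set that lay below the median on all 3 arrays.

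Receptor tyrosine kinases were divided much as all genes were. Of 47 genes 23 (48.9%) lay above the floor and 19 (40.4%) below it, against 55.1% and 36.8% of all genes. MET, the receptor of hepatocyte growth factor, had signals of 13.003, 13.15 and 12.999, ERBB3 of 12.29, 12.10 and 12.26 and EPHA2, an ephrin receptor, of 11.04, 11.07 and 11.28. EGFR was at 10.10 ± 0.15, IGF1R at 10.58 ± 0.06 and FGFR3 at 10.29 ± 0.14. PDGFRA, a receptor of mesenchymal cells, was at 1.16 ± 0.14, KDR and TIE1, of vessels, at 2.99 ± 1.35 and 1.16 ± 0.68, and KIT at 3.40 ± 0.74. EGFR ligands and feedback genes of the MAPK pathway lay above the floor in 25 of 27 cases, with EREG and TGFA, ligands of EGFR, at 11.51 ± 0.10 and 10.77 ± 0.05 and the phosphatase gene DUSP6 at 11.21 ± 0.05. The ligands EGF and NRG1 were the 2 below it, at 3.90 ± 0.17 and 3.75 ± 0.65. Of 36 TGF-beta and BMP pathway genes 25 lay above, led by ID1 at 12.33 ± 0.11, GDF15 at 11.63 ± 0.03 and BMP4 at 10.97 ± 0.11, with SMAD4, the common mediator, at 7.79 ± 0.01. The BMP antagonists GREM1 and NOG lay below at 1.55 ± 2.38 and 1.02 ± 1.87. Among Notch genes 16 of 23 lay above, with the ligand JAG1 at 11.75 ± 0.10 and the receptors NOTCH2 at 8.999 ± 0.13, NOTCH1 at 7.33 ± 0.69 and NOTCH3, below the floor, at 3.999 ± 1.09. A dimmer probe set, below the floor on all 3 arrays, existed for ERBB3, EGFR, IGF1R, FGFR3, GDF15, SMAD4, JAG1 and NOTCH1.

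Of 39 nuclear receptor genes 24 (61.5%) lay above the floor, against 55.1% of all genes. Among them were PPARG, a receptor of fatty acid ligands, at 10.20 ± 0.10 and the vitamin D receptor VDR at 9.23 ± 0.05. The glucocorticoid receptor NR3C1 lay below it at 3.35 ± 1.72, as did RORB at 1.43 ± 1.80. Of 25 integrin genes 11 lay above, including ITGB1 at 13.72 ± 0.07, ITGA6 at 12.44 ± 0.18 and ITGAV at 11.68 ± 0.05, while the leukocyte integrin ITGB2 lay below at 2.53 ± 1.31. Annexins, calcium-dependent membrane-binding proteins, lay above in 10 of 11 cases, led by ANXA2 at 13.83 ± 0.05. Of 19 S100 genes 9 lay above, with S100A6 at 14.33 ± 0.03 and S100P at 13.95 ± 0.10, and 8 below, including the myeloid S100A8 and S100A9 at 3.69 ± 0.51 and 2.74 ± 1.21. Serpins lay above in 11 of 30 cases, ABC transporters in 21 of 42, solute carriers in 181 of 316 (57.3%), zinc finger (ZNF) genes in 311 of 466 (66.7%) and small nucleolar RNA host genes in 5 of 11. The share over all genes was 55.1%. Probe sets disagreed for VDR and ITGB1, with another one below the floor on all 3 arrays.

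Interferon-stimulated genes were above the floor in cultures that had received the vehicle alone. Of 38 on the array 36 (94.7%) lay above the median on all 3 arrays, with a median relative signal of 4.39. limma called 35 of them more than 2-fold above it. ISG15, a ubiquitin-like modifier, had log2 signals of 13.12, 13.15 and 12.69, IFI27 of 12.91, 12.97 and 12.53 and IFI6 of 12.44, 12.34 and 12.14. MX1, an antiviral GTPase, was at 9.88 ± 0.42, OAS1, which makes the activator of RNase L, at 10.66 ± 0.24, and the transcription factors IRF9 and IRF7 at 10.15 ± 0.16 and 10.20 ± 0.04. HERC5 lay below the floor at 3.94 ± 0.64 and TRIM22 on both sides at 6.25 ± 1.18. Nucleic acid sensors and their adaptors lay above in 12 of 18 cases. The double-stranded RNA sensors RIGI, IFIH1 (MDA5) and EIF2AK2 (PKR) were at 9.53 ± 0.36, 9.999 ± 0.35 and 11.34 ± 0.25, the DNA sensor CGAS at 7.38 ± 0.20 and its adaptor STING1 at 6.68 ± 0.11, while AIM2 and ZBP1 lay below at 3.80 ± 0.49 and 2.33 ± 0.90. For IFIH1 and CGAS, another probe set stayed below the floor on all 3 arrays.

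Antigen presentation differed by class. Of 19 genes of the MHC class I pathway 17 lay above the floor, with B2M, the light chain, at 14.10 ± 0.06 and HLA-C at 11.50 ± 0.05. Of 16 genes of the class II pathway 6 lay above it. HLA-DRA, a class II chain, was at 4.17 ± 0.20 and CIITA, the master activator of class II genes, at 4.06 ± 1.23, both below the floor. Of 29 NF-kappaB, chemokine and feedback genes 16 lay above. LCN2, an iron-scavenging antibacterial protein, stood at 13.74 ± 0.08 and the inhibitor NFKBIA at 9.61 ± 0.06, while the cytokines TNF and IL6 lay below at 3.28 ± 1.28 and 3.25 ± 1.74 and CXCL8 had 6.33 ± 0.38. Toll-like and interleukin receptor genes lay above in 19 of 30 cases, with IFNGR1, a receptor of interferon gamma, at 11.58 ± 0.04, and the Toll-like receptors TLR2 and TLR4 below at 2.36 ± 1.13 and 4.35 ± 0.92. Of 19 BCL2 family genes 15 lay above, with MCL1 at 11.91 ± 0.07 and BCL2 itself on both sides at 4.98 ± 0.67. Caspase and death receptor genes lay above in 21 of 27 cases, with CASP8 at 9.81 ± 0.15, FAS on both sides at 5.44 ± 0.78 and GSDME, an executor of lytic death, below at 2.57 ± 1.56. Another probe set of NFKBIA, MCL1 and CASP8 lay below the floor on all 3 arrays.

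The DNA methylation machinery was measured in cultures that 5-Aza, which acts on it, had not reached. DNMT1, the maintenance methyltransferase, had log2 signals of 8.49, 8.62 and 8.70, close to each other, with a relative signal of 3.46 ± 0.14 (limma, adjusted p = 0.000113). UHRF1, which recruits DNMT1 to replicated DNA, was at 8.03 ± 0.08, and the de novo methyltransferases DNMT3A and DNMT3B at 7.81 ± 0.35 and 5.81 ± 0.41. The demethylases TET3 and TET2 were above the floor at 10.43 ± 0.05 and 8.39 ± 0.12, and TET1 below it at 2.12 ± 1.18. In all, 15 of 18 genes lay above it. Of 21 genes of deoxycytidine uptake and metabolism 18 lay above. DCK, the kinase that activates deoxycytidine analogs, was at 8.53 ± 0.27, CDA, the deaminase that inactivates them, at 6.92 ± 0.33, and the transporter SLC29A1 on both sides at 4.43 ± 1.81. Histone modifiers lay above in 40 of 43 cases and below in 0, with HDAC1 at 11.98 ± 0.02 and EZH2, the methyltransferase of the Polycomb complex, at 9.36 ± 0.07. Below the floor on all 3 arrays lay a further probe set of TET3 and TET2.

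Genes that promoter methylation is known to silence lay mostly below the floor. Of 33 genes with known promoter hypermethylation in colorectal cancer 8 (24.2%) lay above it and 22 (66.7%) below, against 36.8% of all genes. TFPI2, a protease inhibitor, had log2 signals of 0.58, -0.32 and 3.20, SFRP2, a Wnt antagonist, of 0.58, 3.28 and 0.93, and SLC5A8, a carrier of short-chain fatty acids, of 1.81, 1.72 and 1.32. NEUROG1, GATA5, NDRG4, HIC1 and TIMP3 were at 1.78 ± 1.39, 2.04 ± 0.49, 2.21 ± 0.19, 2.21 ± 1.91 and 3.74 ± 0.21. Those above were SEPTIN9 at 11.82 ± 0.04, THBS1 at 8.49 ± 0.05, RASSF1 at 8.43 ± 0.16, the DNA repair gene MGMT at 7.75 ± 0.23, CHFR at 7.49 ± 0.15, DKK1 at 7.14 ± 0.09, SOCS1 at 5.60 ± 0.21 and TAC1 at 5.22 ± 0.16. SPARC, a matrix protein, had signals of 1.72, 2.58 and 3.61 and lay below the floor with both probe sets, and limma called it at a relative signal of -2.51 ± 0.96 (adjusted p = 0.0119), a call lost without replicate 2. THBS1, CHFR and SOCS1 also had a probe set that lay below the median on all 3 arrays.

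Of 36 germ cell and meiosis genes 5 lay above the floor and 29 (80.6%) below. DAZL, an RNA-binding protein of germ cells, had signals of 0.58, 1.38 and 0.85, MAEL, of the piRNA pathway, of 3.61, 0.93 and 2.38, and DDX4 (VASA), a germ cell helicase, of 0.26, 1.32 and -0.52. All 3 genes were below the floor on every array, and limma called 20 members of the list more than 2-fold below it. Those above were REC8, a meiotic cohesin, at 7.46 ± 0.29, TDRKH at 6.62 ± 0.35, SYCP2 at 6.61 ± 0.34, STK31 at 6.23 ± 0.26 and MEI1 at 5.39 ± 0.10. Cancer-testis antigens lay above in 2 of 24 cases, LAGE3 at 10.004 ± 0.09 and MAGEA6 at 8.59 ± 0.05, whose sequence is close to other MAGEA genes. MAGEA4 and PRAME lay below at 1.23 ± 0.57 and 4.11 ± 0.76. Of 23 imprinted genes 12 lay above, with GNAS at 13.37 ± 0.04, PHLDA2 at 13.02 ± 0.09 and MEST at 10.92 ± 0.05, and 9 below, including NDN and SNRPN of the Prader-Willi region at 1.69 ± 0.50 and 2.46 ± 0.44. A dimmer probe set, below the floor on all 3 arrays, existed for REC8, TDRKH, SYCP2, MEI1, LAGE3, GNAS and PHLDA2.

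Genes of other tissues lay mostly below the floor. Of 31 mesenchymal genes 10 lay above it, and VIM (vimentin), FN1 (fibronectin), CDH2 (N-cadherin), SNAI2 and TWIST1 were all below at 2.59 ± 1.73, 4.17 ± 0.19, 3.21 ± 1.36, 0.05 ± 2.13 and 1.61 ± 2.11, while S100A4 was at 13.42 ± 0.11 and ZEB1 near the floor at 5.98 ± 0.05. Collagens lay above in 7 of 43 cases, led by COL16A1 at 8.93 ± 0.53 and COL27A1 at 8.85 ± 0.19. The counts above the floor were 4 of 22 for fibroblast and endothelial genes, 3 of 21 for blood cell genes, 6 of 27 for neuronal and glial genes, 2 of 27 for muscle genes, 3 of 24 for hepatocyte and pancreas genes, 3 of 19 for squamous and skin genes and 4 of 18 for lung, thyroid, kidney and prostate genes. Some members of these lists were bright. SERPINA1, the antitrypsin of liver that enterocytes also make, had signals of 11.95, 11.94 and 11.90, APOH, a plasma glycoprotein of liver, of 10.77, 10.76 and 10.77, and TUBB3, the tubulin of neurons and of many cancers, of 10.35, 10.48 and 10.07. PAX8, a factor of thyroid and kidney, was at 8.26 ± 0.16. Families with receptors or proteins of single tissues gave low counts above the floor, with 2 of 82 (2.4%) for olfactory receptors, 1 of 33 (3.0%) for keratin-associated proteins, 2 of 47 (4.3%) for protocadherins and 4 of 20 for taste receptors. Probe sets disagreed for ZEB1, COL27A1, SERPINA1, APOH and PAX8, with another one below the floor on all 3 arrays.

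**Figure D3:**
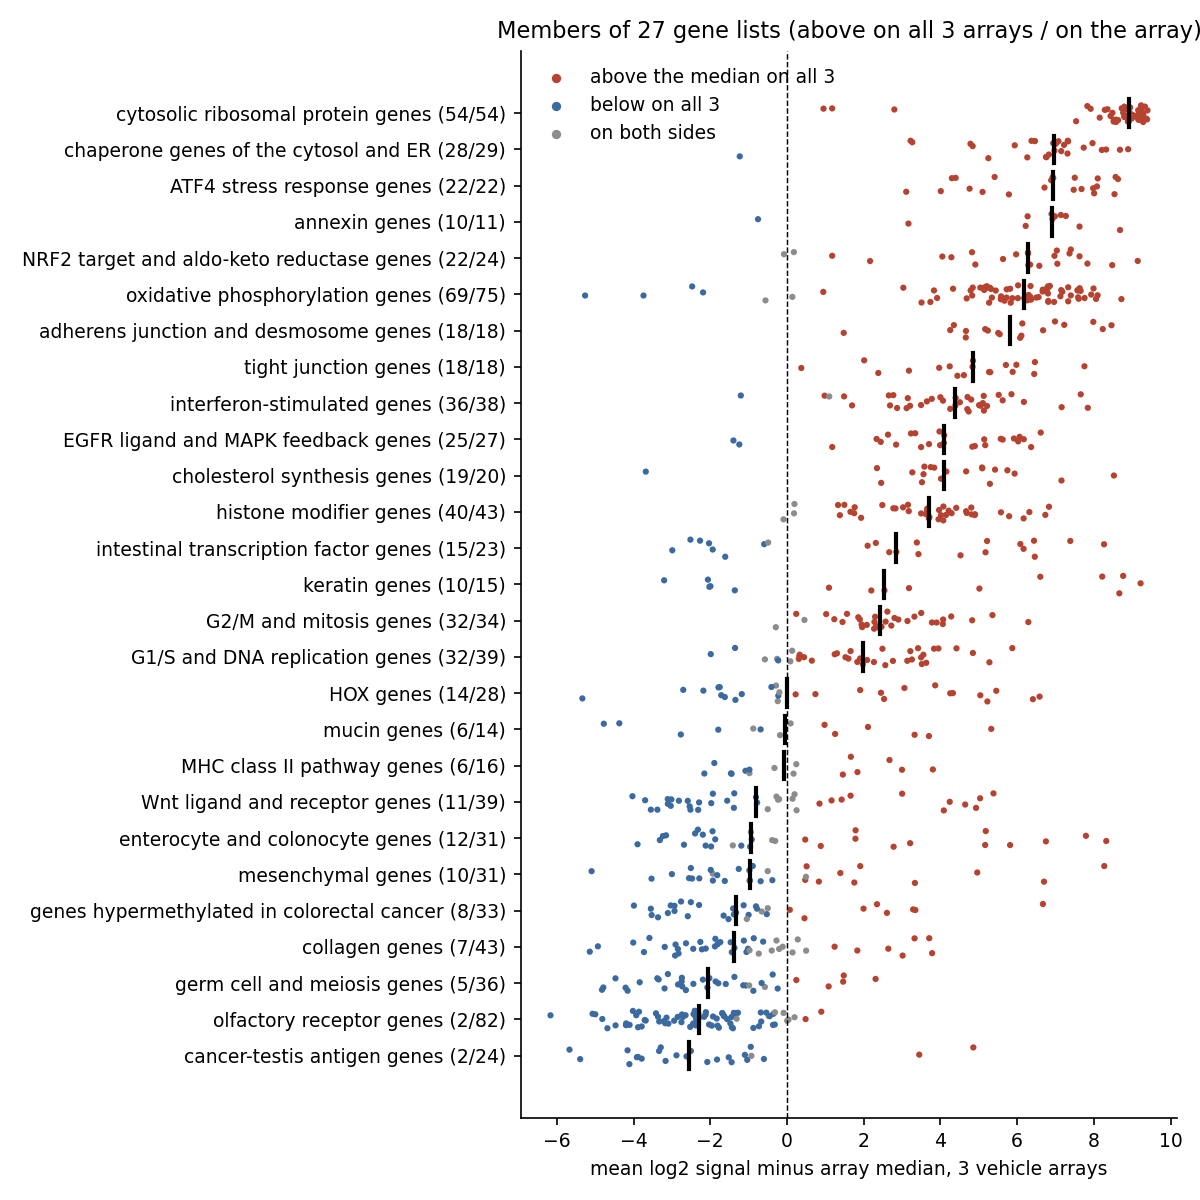
Mean relative signal (log2 signal minus array median, x axis) of each member of 27 gene lists (y axis), with the list medians as black bars. Point colours show genes above the median on all 3 vehicle arrays, below it on all 3, or on both sides. Junction, translation and stress lists lie to the right of the dashed floor, while germ cell, cancer-testis and olfactory receptor genes lie to its left.

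The genes that the study had assayed by PCR spanned a wide range of signal. RPSA, one of them, was not analysed here. GAPDH and TGM2, a transglutaminase, were bright at 13.78 ± 0.06 and 11.83 ± 0.09, followed by IRF7 at 10.20 ± 0.04 and TAF11, a subunit of TFIID, at 9.40 ± 0.08. ALDH3A1, an aldehyde dehydrogenase, was at 7.31 ± 0.20, EFNB1, an ephrin, at 6.75 ± 0.01, LIPE, the hormone-sensitive lipase, at 6.41 ± 0.24, and MAPK10, the kinase JNK3, at 6.11 ± 0.05. GGT7, GGT1 and IL1R1 were near the floor at 5.87 ± 0.20, 5.16 ± 0.32 and 5.30 ± 0.15, and PLCL1 was below it at 3.83 ± 0.17. For MAPK10 and GGT7, another probe set stayed below the floor on all 3 arrays.

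Promoters of genes above and below the floor differed in CpG content. A promoter was taken as the 250 bases before the start of a gene in RefSeq (GRCh38.p14), and 15384 genes had one. The letters CG were counted, which read the same on both strands. Genes above the floor on all 3 arrays had a median of 21 CG in that window, and genes below it 7. A count of 10 or more was found in 85.3% of promoters of genes above, 44.5% of those below and 69.2% of all. The share of genes above the floor was 19.2% with 0 to 2 CG, 41.7% with 6 to 10 and 74.4% with 21 to 60. The letters TATAAA, searched on the strand of the gene from 45 to 16 bases before the start, were in 1.59% of promoters of genes above, 5.19% of those below and 3.02% of all.

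**Figure D4:**
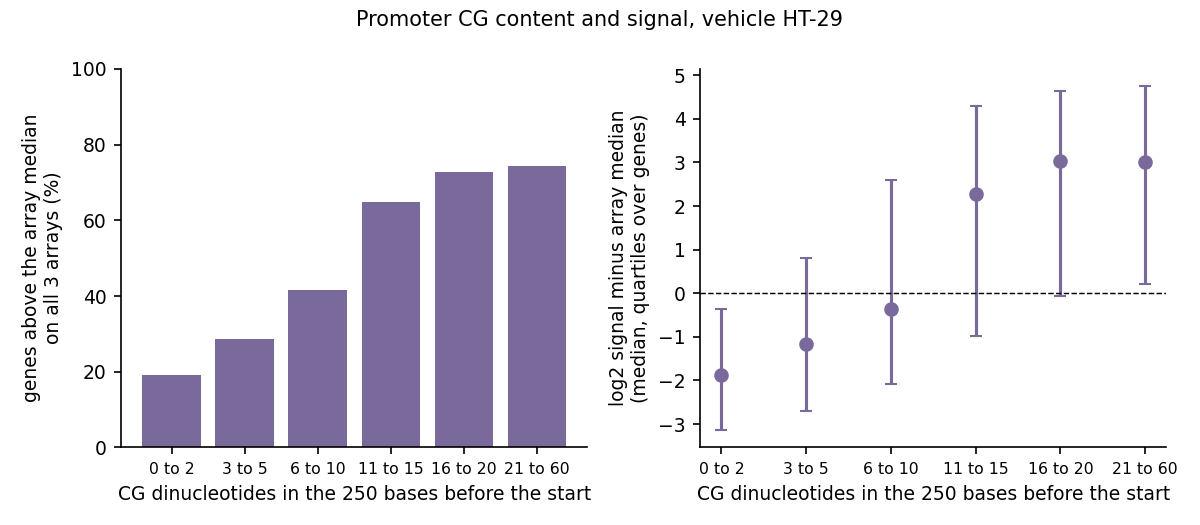
Share of genes above the array median on all 3 vehicle arrays (left, %) and median relative signal with quartiles over genes (right, log2), by the number of CG dinucleotides in the 250 bases before the start (x axis). The share runs from 19.2% in the lowest bin to 74.4% in the highest.

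The 5 promoters printed here, chosen after their values were seen, stand for the 4 combinations of CG content and signal, with CG in capitals. RPS19 was bright with 23 CG (chr19:41860005-41860254, plus strand), KRT20 bright with 2 (chr17:40885243-40885492, minus strand), and ALPI below the floor with 5 (chr2:232455903-232456152, plus strand). DAZL and TFPI2 lay below the floor with 28 and 20 CG (chr3:16605424-16605673 and chr7:93890754-93891003, both minus strand). All are printed 5′ to 3′ on the strand of the gene and end at the base before the start.
RPS19: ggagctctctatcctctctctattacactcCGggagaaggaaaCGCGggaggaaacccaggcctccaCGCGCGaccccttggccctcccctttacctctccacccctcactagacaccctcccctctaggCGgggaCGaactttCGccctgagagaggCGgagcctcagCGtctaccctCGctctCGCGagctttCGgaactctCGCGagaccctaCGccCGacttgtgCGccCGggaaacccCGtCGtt
KRT20: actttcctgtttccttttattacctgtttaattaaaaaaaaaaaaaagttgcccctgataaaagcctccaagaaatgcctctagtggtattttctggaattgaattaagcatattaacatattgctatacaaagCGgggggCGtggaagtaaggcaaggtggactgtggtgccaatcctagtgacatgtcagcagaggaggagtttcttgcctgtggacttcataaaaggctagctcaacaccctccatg
DAZL: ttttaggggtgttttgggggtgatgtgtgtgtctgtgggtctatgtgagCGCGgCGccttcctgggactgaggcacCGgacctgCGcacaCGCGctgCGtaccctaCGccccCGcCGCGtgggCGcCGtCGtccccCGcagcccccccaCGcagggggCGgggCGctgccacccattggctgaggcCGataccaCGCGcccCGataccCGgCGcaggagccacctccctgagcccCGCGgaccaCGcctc
TFPI2: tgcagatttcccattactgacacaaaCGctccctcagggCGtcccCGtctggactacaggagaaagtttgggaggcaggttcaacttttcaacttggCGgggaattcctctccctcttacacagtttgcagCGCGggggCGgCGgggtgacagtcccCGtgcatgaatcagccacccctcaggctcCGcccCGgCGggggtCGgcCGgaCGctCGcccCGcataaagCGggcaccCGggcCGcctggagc
ALPI: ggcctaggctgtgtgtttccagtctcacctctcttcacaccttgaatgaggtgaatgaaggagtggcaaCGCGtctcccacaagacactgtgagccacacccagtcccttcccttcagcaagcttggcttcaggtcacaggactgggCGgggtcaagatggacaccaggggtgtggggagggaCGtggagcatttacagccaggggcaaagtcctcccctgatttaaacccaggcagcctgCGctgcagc

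The lists below the floor differed in their promoters. Of 32 germ cell and meiosis genes with a promoter, 26 had 10 or more CG, and 19 of these 26 lay below the floor. Among the genes with known promoter hypermethylation, 21 of 24 had 10 or more, and 11 of these 21 lay below. Of all 10653 promoters with 10 or more CG, 2349 (22.1%) belonged to genes below the floor. Olfactory receptors had 10 or more in 3 of 60 cases and keratin-associated proteins in 0 of 30. Keratins and CEACAM genes had 10 or more CG in 0 of 5 and 0 of 8 promoters, of which 2 and 3 belonged to genes below the floor, and cytosolic ribosomal protein genes, all above it, in 44 of 48. Interferon-stimulated genes had a median of 5 CG, and 10 of 30 had 10 or more. DNA methylation itself was not measured on these arrays.

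Some gene lists differed between the 3 vehicle arrays in 1 direction. Each culture had 1 array, so that a difference of culture cannot be told apart from one of RNA preparation, labelling or array. The genes of a list are not independent replicates. Among the 10889 genes above the floor, replicate 3 was the lowest array on the relative scale for 4256 (39.1%). Of the 36 interferon-stimulated genes above the floor it was the lowest for all 36. OAS2 had log2 signals of 8.47, 8.46 and 7.11, IFIT1 of 11.35, 11.26 and 10.38, IFIT2 of 9.22, 8.73 and 7.96 and CMPK2 of 9.88, 9.84 and 8.89. In each of these 4 genes replicate 3 was the lowest array. All 4 are among the 15 most variable genes described below, so that their order adds no support of its own. The median deviations of the 36 genes from their own means were 0.20, 0.18 and -0.36 in replicates 1, 2 and 3, against -0.06, 0.09 and -0.03 for all genes above the floor. With the signals quantile normalized, or as deposited, replicate 3 was the lowest for 34 of the 36. Replicate 3 was also the lowest for 9 of 12 nucleic acid sensors, 5 of 6 cyclin-dependent kinase inhibitor genes, 11 of 15 BCL2 family genes, 24 of 33 proteasome genes, 49 of 69 oxidative phosphorylation genes and 52 of 75 mitochondrial ribosomal protein genes. In the proteasome, oxidative phosphorylation and mitochondrial ribosomal lists its median deviations were smaller, at -0.107, -0.109 and -0.118. There replicate 2 was the highest for 32, 66 and 65 genes, and it was so for 57.6% of all genes above the floor.

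Mitotic genes and metallothioneins had their lowest signals on the same array. Replicate 3 was the lowest for 27 of 32 G2/M and mitosis genes, with median deviations of 0.23, 0.08 and -0.31. TOP2A, the topoisomerase that disentangles chromosomes, had log2 signals of 7.91, 7.52 and 6.85, KIF2C, a mitotic kinesin, of 8.03, 7.65 and 6.95, and UBE2C, which marks mitotic proteins for degradation, of 8.35, 7.71 and 7.54. NUSAP1, a spindle protein outside that list, had 9.10, 8.20 and 7.99. In these genes replicate 1 was the highest of the 3. The G1/S list gave 17 of 32 with replicate 3 lowest and median deviations of -0.03, 0.11 and -0.12. All 6 metallothioneins above the floor were lowest in replicate 3, with MT2A at 10.16, 10.002 and 9.29 and MT1X at 9.02, 8.82 and 8.25, but their probe sets can share targets. In HOX genes replicate 1 was lowest for 12 of 14, against 47.5% of all genes above the floor, with median deviations of -0.14, 0.02 and 0.13. This was not particular to HOX genes. Replicate 1 was also lowest for 9 of 11 integrin, 15 of 19 cholesterol synthesis and 11 of 15 Wnt target and stem cell genes, but for 2 of 32 G2/M and mitosis genes. For the actin control probe sets the 3′ log2 signal exceeded the 5′ one by 1.91, 2.06 and 2.29 in replicates 1, 2 and 3 and for GAPDH by 0.125, 0.2 and 0.252, so that the RNA quality measures also had replicate 3 at one end. Their part in the pattern was not tested. Another probe set of TOP2A lay below the floor on all 3 arrays.

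**Figure D5:**
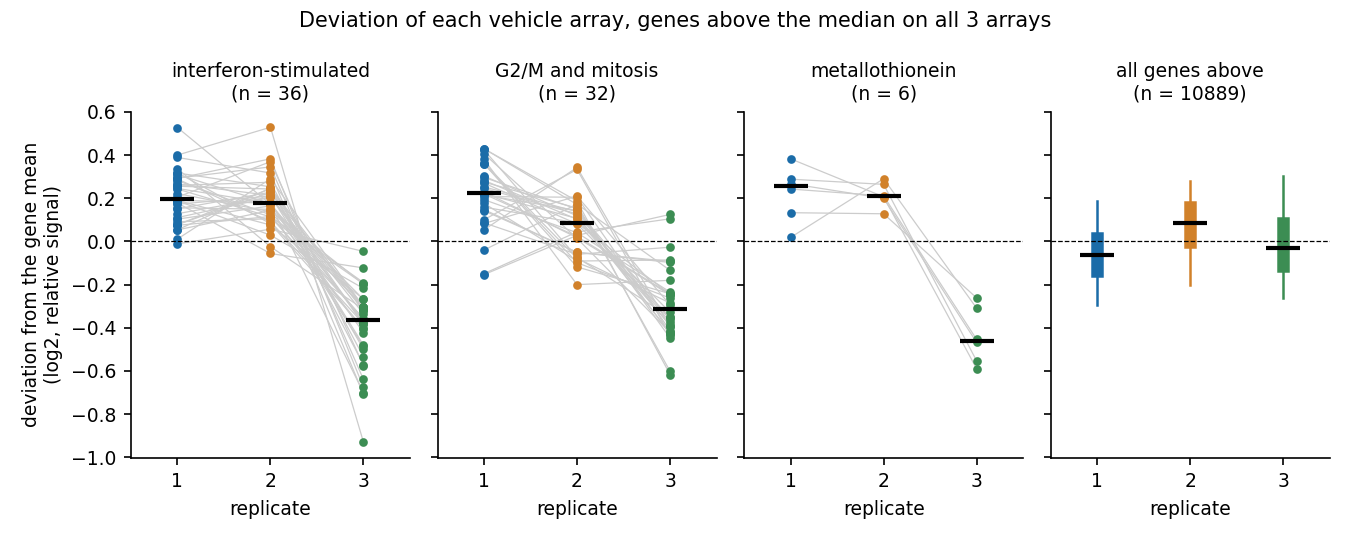
Deviation of the relative signal of each gene from its own mean (log2, y axis) on each vehicle array (x axis), for interferon-stimulated, G2/M and metallothionein genes above the floor, 1 line per gene, and for all 10889 genes above the floor (thick bars quartiles, thin bars 5th to 95th percentile). Black marks are medians. Replicate 3 is lowest for 36 of 36, 27 of 32 and 6 of 6 members.

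Few bright genes varied widely between the 3 arrays. Of the 7138 genes above the floor with a mean log2 signal of at least 8, 21 had an SD over 0.5 on the relative scale. The 15 largest held 4 interferon-stimulated or interferon-linked genes (OAS2, IFIT1, IFIT2 and CMPK2) and 2 metallothionein genes (MT1H and MT1HL1). The largest was GOLGA8N, of a repeated golgin family, with log2 signals of 10.38, 8.65 and 9.09. NEK9, a mitotic kinase, had 9.39, 8.17 and 9.66, with replicate 2 low, and ITFG1 9.53, 10.63 and 9.48, with replicate 2 high. PIGT, of glycolipid anchor synthesis, had 9.84, 10.71 and 10.58. NBEAL2, COL16A1 and SLC9A3-AS1 were highest in replicate 3, at 8.53, 8.58 and 9.55, 8.50, 8.77 and 9.52 and 7.62, 7.997 and 8.71. DPP4 and NUSAP1, given above, completed the 15. Below the floor on all 3 arrays lay a further probe set of NEK9 and NBEAL2.

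The share of genes above the floor varied little by chromosome. Among nuclear chromosomes other than Y it ran from 46.3% of 242 genes on chromosome 21 to 61.2% of 825 on chromosome 16. Without the 7 keratin-associated protein genes on chromosome 21 its share was 47.7%. All 7 mitochondrial genes lay above. Probe sets of 1 gene often disagreed. Of 10523 genes with more than 1 probe set, 3112 (29.6%) had at least one above the median on all 3 arrays and another below it on all 3, and the brightest represented the gene.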

How the data were processed

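Total RNA of 3 vehicle cultures of HT-29 had been hybridised to 1 Affymetrix U133 Plus array each. The deposited values are log2 signals made by the authors, and the submitters' processing notes name RMA and affy 1.14.2. Their form is instead that of MAS 5.0 signals, with log2 of multiples of 0.1 and a 2% trimmed mean near 250 on the linear scale on each array, so that each array appears scaled by 1 factor. Which software made them stays unsettled. Of 54675 probe sets, 3 lacked a vehicle value and were dropped. By the platform's gene table, with symbols updated through RefSeq (GRCh38.p14), 41090 probe sets named 1 gene, 1801 named several, 11719 named none and 62 were controls. The brightest probe set, by its mean over the 3 arrays, stood for each of 19775 genes.

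The relative signal was tested against 0, two-sided, with limma 3.58.1 in R 4.3.3 (lmFit with 1 mean, then eBayes). Calls needed an adjusted p (Benjamini-Hochberg) of 0.05 or less together with a distance from the median of over 2-fold. The fit was tested on simulated data, where fewer of the shifted genes were recovered with the noise of genes below the median than with that of genes above it. The cultures are replicates of 1 cell line, so p-values speak only of these 3 samples, with gene variances drawn by eBayes towards a shared value. The 71 lists held 2847 entries, of which 2726 were found. Members and lists were chosen with earlier results of these data known, and lists are described by counts and medians beside those of all genes.

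The rule for named genes took DNMT1, SPARC, GAPDH and the genes assayed by PCR, the 20 brightest, the 15 most variable with a mean log2 signal of at least 8, and the 6 highest, 3 lowest and 2 nearest the median of each list. It also took every member of the keratin, CEACAM, mucin, HOX and intestinal transcription factor lists. It gave 783 genes. The text prints 298 of these and 83 others, which were chosen after their values were seen. Alternatives were other floors, other choices of probe set (1 of them over all 9 arrays, the only use of the other 6), quantile normalization, eBayes with trend and robust, no fold threshold and leaving out each replicate. The array pattern was also read on quantile normalized and on deposited signals, alternatives chosen after seeing the data. Plots were made in matplotlib 3.10.9 (Python 3.11.15, pandas 2.3.3).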

Additional observations from a re-analysis of the deposited data

How the results depend on the processing

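The number of genes above the floor stayed within 1.5 times the main count under 9 of 10 alternatives, from 8333 of 17098 genes without the less specific probe sets (names ending in _x_at or _s_at) to 12049 of 19775 with the floor at the 40th percentile. Counted by probe sets it was 24917 of 54610. The limma counts stayed within 1.5 times under all 9 alternatives each, from 7524 to 10572 genes above and from 3735 to 6871 below. Leaving out each replicate gave 11102 to 11161 genes above the floor, and limma counts of 9928 to 10001 above and 3735 to 4124 below. The median SD of genes above the floor was 0.125 after quantile normalization. No paired analysis was possible because only 1 group was analysed, and no replicate number can act as a block within it.

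Some list counts moved by over 1.5 times, and the cause was not tested. The rule compared numbers of members and not shares, so that a list with fewer measured genes could move at a similar share. Cholesterol synthesis genes moved with 12 of 13 against 19 of 20. Over all genes, 9686 of 19775 lay above the floor at the 60th percentile and 12049 at the 40th. The count was 9381 of 19775 with the mean of all probe sets and 8333 of 17098 without the less specific ones. With the floor at the 60th percentile the counts above it were 1 of 17 for enteroendocrine genes, 10 of 29 for NF-kappaB chemokine and feedback genes, 3 of 36 for germ cell and meiosis genes, 6 of 31 for mesenchymal genes, 2 of 22 for fibroblast and endothelial genes, 1 of 21 for blood cell genes, 3 of 27 for neuronal and glial genes, 1 of 27 for muscle genes, 1 of 19 for squamous and skin genes, 0 of 82 for olfactory receptor genes, 2 of 20 for taste receptor genes, 1 of 47 for protocadherin genes and 3 of 11 for small nucleolar RNA host genes. At the 40th percentile they were 8 of 17 for enteroendocrine genes, 12 of 43 for collagen genes, 6 of 27 for muscle genes, 5 of 24 for hepatocyte and pancreas genes, 7 of 18 for lung, thyroid, kidney and prostate genes, 10 of 82 for olfactory receptor genes and 5 of 47 for protocadherin genes. With the mean of all probe sets of a gene they were 7 of 39 for Wnt ligand and receptor genes, 2 of 36 for germ cell and meiosis genes, 5 of 31 for mesenchymal genes, 0 of 22 for fibroblast and endothelial genes, 2 of 27 for neuronal and glial genes, 1 of 27 for muscle genes and 2 of 18 for lung, thyroid, kidney and prostate genes. Without probe sets ending in _x_at or _s_at fewer genes were measured, and the counts were 4 of 9 for keratin genes, 24 of 31 for cytosolic ribosomal protein genes, 39 of 44 for mitochondrial ribosomal protein genes, 10 of 14 for glycolysis genes, 20 of 27 for G2/M and mitosis genes, 12 of 13 for cholesterol synthesis genes, 7 of 22 for cytochrome P450 genes, 0 of 4 for metallothionein genes, 14 of 38 for receptor tyrosine kinase genes, 9 of 17 for Notch pathway genes, 7 of 22 for NF-kappaB chemokine and feedback genes, 10 of 14 for MHC class I pathway genes, 4 of 22 for genes hypermethylated in colorectal cancer, 0 of 19 for cancer-testis antigen genes, 5 of 23 for mesenchymal genes, 3 of 37 for collagen genes, 2 of 18 for fibroblast and endothelial genes, 1 of 20 for hepatocyte and pancreas genes, 0 of 13 for squamous and skin genes, 2 of 14 for lung, thyroid, kidney and prostate genes, 1 of 35 for protocadherin genes, 13 of 36 for ABC transporter genes and 2 of 9 for small nucleolar RNA host genes. Leaving out each replicate gave 2 to 4 muscle genes, against 2, with 4 both without replicate 2 and without replicate 3, and 3 to 5 squamous and skin genes, against 3, with 5 without replicate 3.

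Of 381 genes in the text, no call changed direction when a replicate was left out, and 52 lost their limma call in at least 1 such fit, 48 of them genes below the median. Quantile normalization ended 4 calls and the choice of probe set over all 9 arrays none, while eBayes with trend and robust added 23. The relative signal of called genes changed sign with the mean of all probe sets for ASCL2 at -2.79, CEACAM7 at -0.52, CGAS at -0.12, KRT7 at -0.59, LGR4 at -0.061, MT1G at -0.17, NEK9 at -0.75, NOTCH1 at -0.69, PAX8 at -0.76, REC8 at -0.21, SYCP2 at -1.15 and THBS1 at -0.20, and without the less specific probe sets for ANXA2 at -0.27, APOH at -1.90, AURKA at -1.05, CASP8 at -1.30, CGAS at -2.69, EZR at -0.15, GDF15 at -0.78, HES1 at -1.92, KRT7 at -0.23, LGR4 at -3.30, LUM at -1.61, MT1G at -3.16, MUC3A at -0.21, NFKBIA at -1.50, PHLDA2 at -0.23, THBS1 at -0.61 and WNT10A at -3.26. The calls of these genes rest on the probe set chosen. With 3 arrays the limit is the noise of dim genes, whose median SD was 1.12 between log2 signals of 2 and 4, against 0.077 above 12. Replicate 3 held the lowest value for 34 of 36 interferon-stimulated genes, 27 of 32 G2/M genes and 6 of 6 metallothionein genes after quantile normalization, and for 34, 25 and 6 on deposited signals, alternatives chosen after seeing the data.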

Other observations

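Probe sets to which the gene table gives no gene were less often above the floor. On all 3 arrays 3587 of 11719 (30.6%) lay above the array median, against 20298 of 41090 (49.4%) with 1 gene and 1032 of 1801 (57.3%) with several.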
